A study of Mus musculus with 9 samples.

Results

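The transcripts of 10 core circadian clock genes were followed in RNA-seq libraries made from spleen naive CD4+ T cells of mice. The genes were Per1, Per2, Per3, Cry1, Cry2, Arntl, Clock, Nr1d1, Nr1d2 and Dbp. They were taken as a named list out of 55487 gene IDs in the deposited tables, and each matched 1 gene ID. All 10 passed the filter on low counts that left 13374 genes for testing.

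All mice were wild-type animals of the C57BL6/J strain, and there were 9 libraries of polyadenylated RNA in 3 groups of 3. One group came from mice with no treatment. Another came from mice treated for 10 days with neutralizing antibodies against interleukin-1b, a cytokine of inflammation, and is called anti-IL-1b here. The last came from mice treated for 10 days with MCC950, a small-molecule inhibitor of NLRP3, the inflammasome protein upstream of interleukin-1b release. The labels name no vehicle or control antibody for the untreated mice. No dose, age, sex or time of day of collection was found in those labels. Separate mice behind the 3 libraries of each group are not stated either, and the p-values therefore cover only the spread from library to library, which may be technical. Library totals ran from 14775375 to 21394797 expected counts, with each group spanning its own range of 17335367 to 21394797 (untreated), 14775375 to 16676626 (anti-IL-1b) and 16769960 to 18497827 (MCC950).

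The circadian clock of mammalian cells is a feedback loop of transcription. BMAL1, encoded by Arntl, pairs with CLOCK and activates genes that carry E-boxes, among them the Per and Cry genes, whose proteins then return to the nucleus and block the activators. REV-ERB-alpha and REV-ERB-beta, encoded by Nr1d1 and Nr1d2, repress Arntl through ROR elements, and DBP is an E-box-driven factor that acts on D-box genes. Per1 is in addition an early-response gene that cyclic-AMP signalling through CREB, and glucocorticoids, can induce directly. Lymphocytes run this clock, and their homing to lymphoid organs follows a daily rhythm.

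The stretches upstream of the transcription start are shown for 4 of the clock genes, to set the gene that moved most (Per1) beside one that fell less (Nr1d2) and others that did not pass the test (Cry1, Per3). The stretch of Ciart, a repressor gene of the same loop described further down, is added because it also fell strongly. Other listed genes that fell strongly, among them Nfil3, Bhlhe40 and Klf9, were not examined in this way. The sequences are from RefSeq on GRCm38.p6, the build that is also called mm10, and are read 5′ to 3′ on the strand of the gene, up to where annotated transcribed exons begin. Capitals mark the motif letters that were found within the printed stretches, with positions counted from the RefSeq start site. Per1 has 2 RefSeq starts, both inside the gene as GENCODE M21 annotates it, and both stretches hold no annotated exon.

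Per1, start at 69098949, chr11:69098699-69098947, plus strand: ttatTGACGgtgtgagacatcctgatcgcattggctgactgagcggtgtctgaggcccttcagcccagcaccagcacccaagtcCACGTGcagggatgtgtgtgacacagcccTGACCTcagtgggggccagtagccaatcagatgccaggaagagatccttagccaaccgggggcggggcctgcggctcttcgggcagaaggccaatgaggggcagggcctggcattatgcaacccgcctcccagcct

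Per1, start at 69100152, chr11:69099902-69100151, plus strand: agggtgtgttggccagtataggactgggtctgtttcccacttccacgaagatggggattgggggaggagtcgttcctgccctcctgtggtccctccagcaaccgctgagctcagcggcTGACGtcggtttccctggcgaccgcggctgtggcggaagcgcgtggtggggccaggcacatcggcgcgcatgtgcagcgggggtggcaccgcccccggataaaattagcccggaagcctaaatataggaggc

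Nr1d2, chr14:18239128-18239356, minus strand: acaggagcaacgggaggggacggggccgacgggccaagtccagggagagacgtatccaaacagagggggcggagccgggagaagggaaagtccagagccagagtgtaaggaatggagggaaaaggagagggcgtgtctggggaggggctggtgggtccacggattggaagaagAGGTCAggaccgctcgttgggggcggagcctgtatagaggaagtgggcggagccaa

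Cry1, chr10:85185065-85185304, minus strand: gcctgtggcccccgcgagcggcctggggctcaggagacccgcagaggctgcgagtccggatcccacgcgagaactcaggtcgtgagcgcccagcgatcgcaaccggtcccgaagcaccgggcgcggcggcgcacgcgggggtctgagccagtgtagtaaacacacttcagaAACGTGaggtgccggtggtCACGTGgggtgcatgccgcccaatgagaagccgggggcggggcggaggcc

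Per3, chr4:151044666-151044915, minus strand: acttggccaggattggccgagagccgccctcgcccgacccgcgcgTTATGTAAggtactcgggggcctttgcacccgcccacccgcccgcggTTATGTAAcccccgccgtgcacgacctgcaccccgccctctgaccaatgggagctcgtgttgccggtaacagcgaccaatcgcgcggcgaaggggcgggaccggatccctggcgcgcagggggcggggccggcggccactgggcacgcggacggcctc

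Ciart, chr3:95882252-95882478, minus strand: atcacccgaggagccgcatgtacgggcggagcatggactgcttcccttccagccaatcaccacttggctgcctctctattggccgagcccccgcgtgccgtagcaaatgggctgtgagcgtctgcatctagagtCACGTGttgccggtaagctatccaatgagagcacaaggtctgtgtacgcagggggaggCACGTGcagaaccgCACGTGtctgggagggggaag

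Both strands of each RefSeq window were searched, and 9 of the 10 clock genes had an entry, with 13 windows among them. The windows searched also ran a short way past the start, beyond the stretches printed. The E-box CACGTG, the site of BMAL1 and CLOCK, lay in windows of Per1 (position -166) and Cry1 (position -60), and in 7.15% of all 32851 windows of the same length. Ciart held it at positions -116, -58 and -44. The related E-prime box CACGTT, printed on the other strand as AACGTG, lay in Cry1 (position -79), Cry2 and Nr1d1 and in 4.685% of all windows. The D-box TTATGTAA, searched together with TTACGTAA, lay in Per3 at positions -205 and -158 and in 1.056% of all windows. The ROR core AGGTCA, which reads TGACCT on the other strand, lay in Nr1d2 (position -77), Per1 (position -137), Arntl (position 32, after the start) and Clock. It lay in 16.255% of all windows. The full cyclic-AMP response element TGACGTCA was found in 0 of the 9 genes and in 1.79% of windows. Its first letters TGACG, which the full element also contains, lay in both Per1 windows (positions -246 and -132). They also lay in Cry1 (position -8, past the end of the printed stretch), in Cry2, and in 20.812% of windows. The full consensus of the glucocorticoid response element was found in 0 of the 9 genes and in 0.009% of windows. These are matches of letters in short windows and say nothing of binding.

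Among the clock genes, 3 of 10 fell with anti-IL-1b (Per1, Arntl and Nr1d2) and 5 of 10 fell with MCC950 (Per1, Arntl, Clock, Cry2 and Nr1d2), while 0 rose in either comparison, also at an unadjusted p under 0.05. Per1, the light- and signal-induced repressor gene, moved far more than the rest. Over all 13374 tested genes, 18.5% were called lower and 15.4% higher with anti-IL-1b, and 19.1% lower and 17.7% higher with MCC950, in edgeR's quasi-likelihood test at a Benjamini-Hochberg adjusted p under 0.05. Called in either direction were 34.0% and 36.8% of all tested genes, and with 10 genes the difference between these shares and those of the clock genes was not tested. Libraries of the treated and untreated groups did not overlap for 5 of 10 clock genes in each comparison, each time with the treated libraries below, against 43.2% of all tested genes with anti-IL-1b and 47.3% with MCC950. The median log2 fold change of the 10 genes was -0.16 with anti-IL-1b and -0.39 with MCC950, and it was -0.16 and -0.38 for the 9 without Per1. The medians of all tested genes were 0.003 and 0.011. Both comparisons use the same untreated libraries, so they are not independent of each other.

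**Figure D1:**
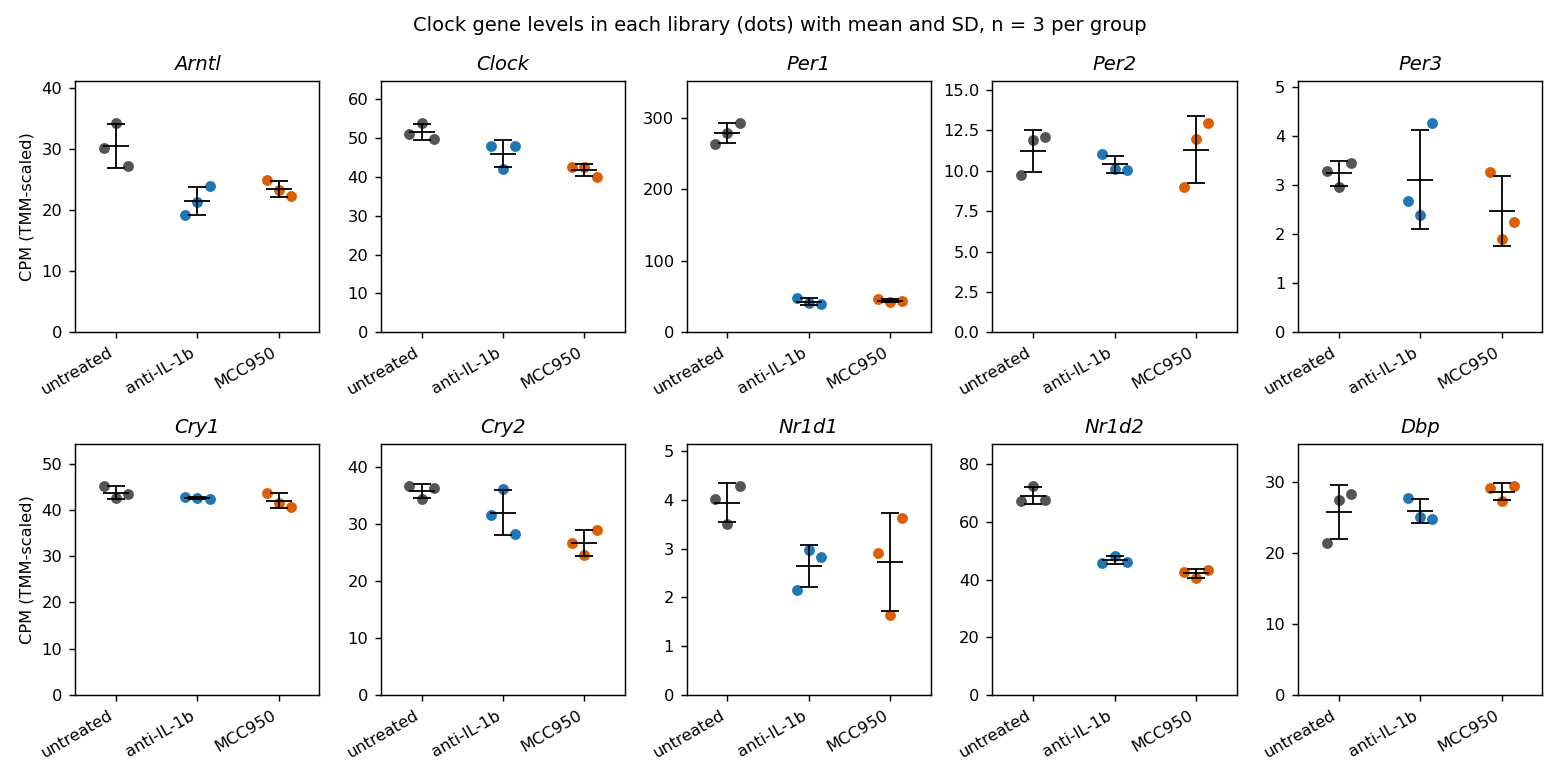
Level of each clock gene in each library, in CPM, counts relative to the TMM-scaled library total, with the mean (long bar) and SD of 3 libraries per group. The 3 untreated Per1 libraries lie between 264 and 293 CPM and the 6 others between 39.4 and 48.8 CPM, whereas the Per2, Cry1 and Dbp libraries of the 3 groups overlap.

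The PER proteins are the rhythmic part of the repressor complex. Per1 stood at 264, 279 and 293 CPM in the untreated libraries, where CPM are counts relative to the scaled library total. With anti-IL-1b it stood at 48.8, 41.5 and 39.4 CPM, and with MCC950 at 47.1, 42.4 and 43.7 CPM. The untreated libraries were all high and the treated libraries all low, with no overlap and with similar levels under both agents. On the log2 scale Per1 fell by 2.69 with anti-IL-1b (SE 0.0595, 95% interval -2.81 to -2.56, adjusted p = 4.76e-27) and by 2.65 with MCC950 (SE 0.0586, interval -2.77 to -2.53, adjusted p = 4.66e-27). This is a level 6.43-fold lower with the antibody and 6.28-fold lower with MCC950. By size of fall Per1 ranked 104 of 13374 genes with anti-IL-1b and 105 with MCC950. In bulk RNA, fewer cells with a transcript and less of it per cell cannot be told apart.

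Per2, the paralog whose loss shortens and then abolishes behavioural rhythms in mice, was expressed at a much lower level. It stood at 9.75, 11.9 and 12.1 CPM untreated, 11.0, 10.1 and 10.0 CPM with anti-IL-1b and 8.99, 11.9 and 12.9 CPM with MCC950, and the 3 groups overlapped. Its log2 difference from untreated was -0.12 (interval -0.43 to 0.20, adjusted p = 0.614) with anti-IL-1b and 0.01 (interval -0.30 to 0.31, adjusted p = 0.982) with MCC950, so a fall of the size seen for Per1 lies outside both intervals. Per3, the least abundant of the family, had 36 to 66 counts per library. It stood at 2.97 to 3.45 CPM untreated, 2.38 to 4.27 CPM with anti-IL-1b and 1.90 to 3.27 CPM with MCC950. At this depth the intervals of Per3 were wide, -0.68 to 0.56 and -1.01 to 0.23 on the log2 scale (adjusted p = 0.905 and 0.344), and no difference was detectable.

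The CRY proteins are the stable partners of PER and the stronger repressors of the activators. Cry1 was the steadiest of the 10 genes, at 45.2, 42.4 and 43.4 CPM untreated, 42.8, 42.5 and 42.3 CPM with anti-IL-1b and 43.7, 41.5 and 40.6 CPM with MCC950. Its intervals against untreated, -0.18 to 0.11 with anti-IL-1b and -0.20 to 0.08 with MCC950, were the narrowest among the genes that did not pass in either comparison (adjusted p = 0.732 and 0.561). Cry2 stood at 36.7, 34.4 and 36.3 CPM untreated. With anti-IL-1b it was uneven, at 31.6, 36.0 and 28.3 CPM, and overlapped the untreated range, with a log2 difference of -0.16 (SE 0.0907, adjusted p = 0.176). With MCC950 it stood at 26.7, 24.5 and 29.0 CPM, below every untreated library, and fell by 0.42 (SE 0.0911, adjusted p = 2.69e-04). Without anti-IL-1b replicate 2, the highest of its group, the antibody difference of Cry2 was -0.26 and passed (adjusted p = 0.048). On log2(TPM + 1) values the MCC950 difference was -0.27 and did not pass (limma-trend, adjusted p = 0.136). The median of all tested genes also moved on this scale, to 0.137 with anti-IL-1b and 0.09 with MCC950.

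The activator genes fell modestly. Arntl, which encodes BMAL1, stood at 30.2, 34.3 and 27.2 CPM untreated, 19.3, 21.4 and 24.0 CPM with anti-IL-1b and 25.0, 23.3 and 22.3 CPM with MCC950. All 6 treated libraries lay below the lowest untreated one. Arntl fell by 0.51 on the log2 scale with anti-IL-1b (SE 0.104, adjusted p = 1.43e-04) and by 0.38 with MCC950 (SE 0.102, adjusted p = 0.00288). Clock, which encodes the partner of BMAL1, stood at 50.9, 53.8 and 49.7 CPM untreated, 47.9, 42.0 and 47.8 CPM with anti-IL-1b and 42.5, 42.5 and 39.9 CPM with MCC950. Its treated libraries also lay below all untreated ones in both groups. Clock fell by 0.31 with MCC950 (SE 0.0719, adjusted p = 7.68e-04), while the difference of -0.17 with anti-IL-1b did not pass (SE 0.0720, adjusted p = 0.0746). On log2(TPM + 1) values the antibody differences were -0.34 for Arntl (adjusted p = 0.048) and -0.01 for Clock, and neither gene passed with MCC950, at -0.33 for Arntl (adjusted p = 0.0554) and -0.17 for Clock (adjusted p = 0.324).

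The REV-ERB genes form the stabilizing arm of the loop, in which they repress Arntl. Nr1d2 stood at 67.4, 72.6 and 67.5 CPM untreated, 45.7, 48.3 and 46.1 CPM with anti-IL-1b and 42.7, 40.5 and 43.3 CPM with MCC950. Every treated library lay below every untreated one, and its p was the smallest of the 10 genes after that of Per1. Nr1d2 fell by 0.57 with anti-IL-1b (SE 0.0665, adjusted p = 5.15e-09) and by 0.71 with MCC950 (SE 0.0664, adjusted p = 1.55e-11). On log2(TPM + 1) values its difference with anti-IL-1b was -0.32 and just missed the threshold (adjusted p = 0.0519). Nr1d1, the paralog that dominates in liver, was scarce in these cells, with 31 to 82 counts per library. It stood at 4.02, 3.51 and 4.29 CPM untreated, 2.15, 2.97 and 2.82 CPM with anti-IL-1b and 2.92, 1.64 and 3.62 CPM with MCC950. The antibody libraries lay below the untreated ones and the MCC950 libraries overlapped them, but neither difference passed (-0.58, interval -1.18 to 0.03, adjusted p = 0.14, and -0.53, interval -1.13 to 0.07, adjusted p = 0.162). These values moved with the setting: the MCC950 value was -0.27 without MCC950 replicate 2 and -0.79 without MCC950 replicate 3, and on log2(TPM + 1) values the differences were -0.06 and -0.22.

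Dbp, the output factor whose transcript has among the widest daily swings in many tissues, did not pass in either comparison. It stood at 21.5, 27.6 and 28.4 CPM untreated, 27.8, 25.1 and 24.9 CPM with anti-IL-1b and 29.2, 27.3 and 29.5 CPM with MCC950. Untreated replicate 1 was low, and the other untreated libraries lay within the treated range. The log2 differences were 0.01 (interval -0.20 to 0.21, adjusted p = 0.972) and 0.15 (interval -0.05 to 0.35, adjusted p = 0.256). Without untreated replicate 1 the MCC950 value was 0.04. With library totals in place of TMM scaling, which moved the median of all genes to 0.13 and 0.125, Dbp passed as higher with MCC950 at 0.26 (adjusted p = 0.0308).

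**Figure D2:**
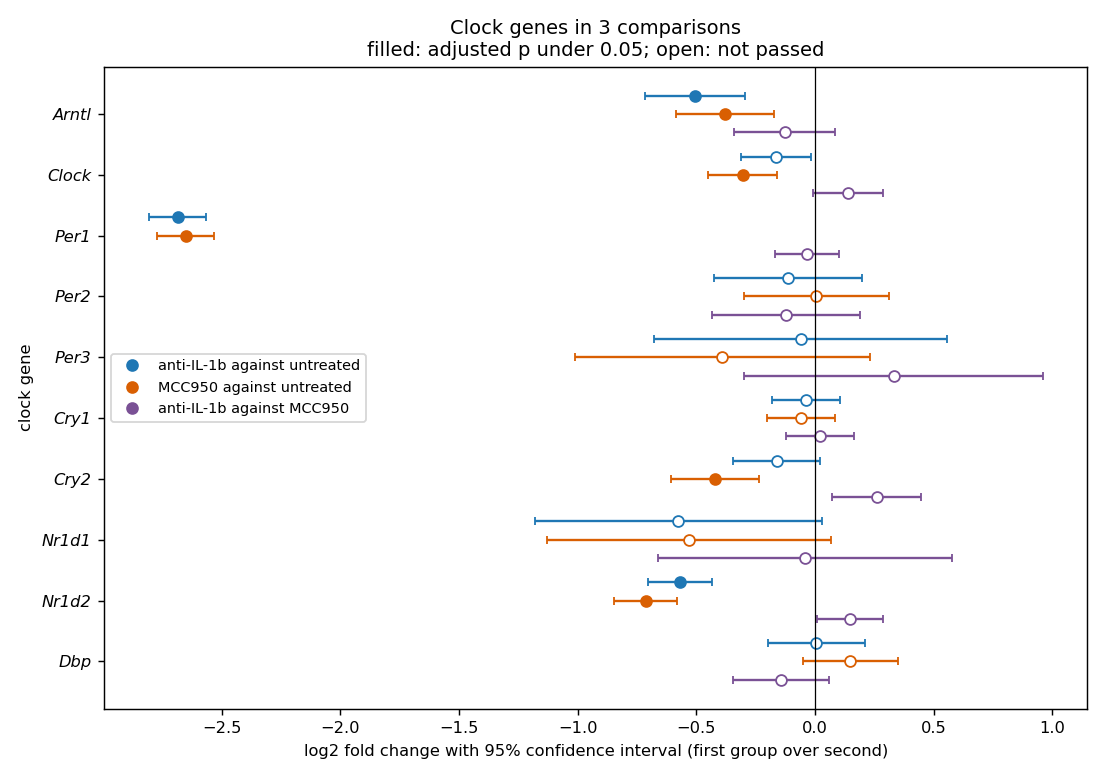
Log2 fold change of each clock gene with its 95% confidence interval in the 3 comparisons, filled where the adjusted p is under 0.05. Per1 lies at -2.69 and -2.65 against untreated, the other called genes between -0.71 and -0.31, and all 10 symbols of the comparison between the agents are open.

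The agents were then set against each other. Between anti-IL-1b and MCC950, 0 of 10 clock genes passed edgeR's test, where 13.2% of all tested genes did (6.13% called higher and 7.11% called lower). DESeq2 and limma-voom also called 0 of 10, and 2 of the 10 had an unadjusted p under 0.05 in edgeR. These were Cry2, higher by 0.26 with the antibody (interval 0.07 to 0.45, adjusted p = 0.0558), and Nr1d2, higher by 0.15 (interval 0.01 to 0.28, adjusted p = 0.171). Nr1d2 was also the gene, 1 of 10, whose libraries did not overlap between the agents, against 29.4% of all tested genes. Cry2 passed under 7 of 21 alternative settings, among them RLE scaling (0.27, adjusted p = 0.0486) and leaving out anti-IL-1b replicate 3 (0.34, adjusted p = 0.0204) or MCC950 replicate 3 (0.33, adjusted p = 0.0433). For Per1 the difference between the agents was -0.03 with an interval of -0.17 to 0.10, which is narrow beside its fall from untreated. A p that misses the threshold does not show that the agents act alike on the other genes, and the interval of Nr1d1 (-0.66 to 0.58) was too wide to tell.

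Levels of different genes were compared on the deposited TPM values, which are relative to transcript length. In untreated cells Per1 led by a wide margin, at 94.0 ± 4.58 TPM (SD, n = 3). Dbp (28.6 ± 5.24 TPM) and Nr1d2 (28.4 ± 2.33 TPM) followed and overlapped each other. Cry1 (24.6 TPM) lay below every Nr1d2 value but within the range of Dbp, which ran from 22.7 to 32.5 TPM. Below Cry1, with ranges that did not overlap between neighbours, came Arntl (17.5 TPM), Cry2 (13.1 TPM), Clock (9.51 TPM), Per2 (2.68 TPM), Nr1d1 (2.15 TPM) and Per3 (0.773 TPM). With anti-IL-1b the order began with Dbp (32.4 TPM), then Cry1 (24.9 TPM) and Nr1d2 (22.6 TPM), which overlapped. Per1 (15.9 TPM) came next and was not separated from Arntl (13.7 TPM) or Cry2 (13.3 TPM), nor they from each other. With MCC950 the order was Dbp (34.7 TPM), Cry1 (22.8 TPM), Nr1d2 (17.9 TPM), Per1 (15.3 TPM), Arntl (13.7 TPM), Cry2 (10.7 TPM) and Clock (8.33 TPM), each separate from the next, and at the bottom Nr1d1 overlapped both Per2 and Per3.

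**Figure D3:**
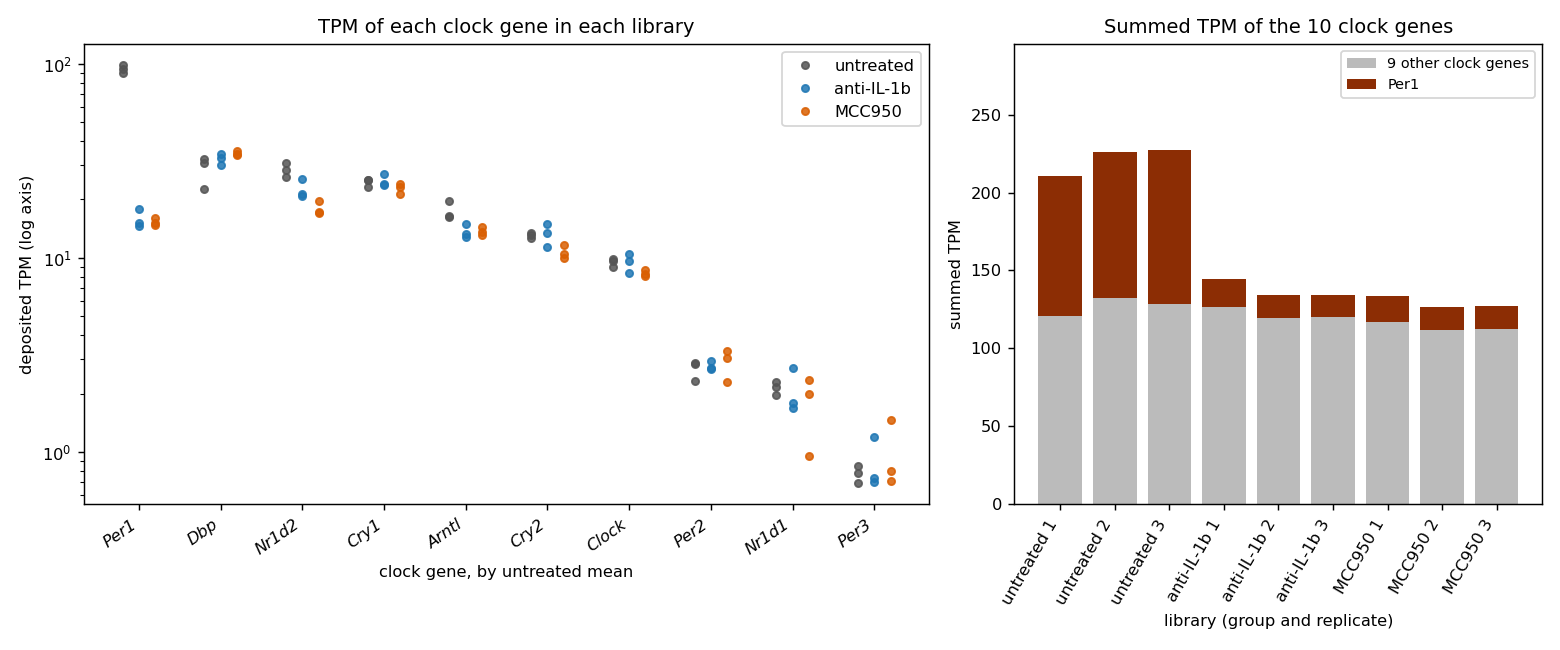
Deposited TPM of each clock gene in each library on a log axis (left), and the summed TPM of the 10 genes per library split into Per1 and the 9 others (right). Per1 makes up 41.5% to 43.4% of the untreated sums and 10.8% to 12.4% of the treated sums.

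Most of the drop in summed clock transcripts was Per1. Per1 made up 41.5% to 43.4% of the summed TPM of the 10 genes in untreated libraries, 10.8% to 12.4% with anti-IL-1b and 11.6% to 12.1% with MCC950. The sum of the 9 other genes was 121 to 132 TPM untreated, 119 to 127 TPM with anti-IL-1b and 112 to 117 TPM with MCC950, so the untreated and antibody ranges overlapped and the MCC950 range lay below the untreated one. The ratio of Per1 to Per2 in TPM was 33.0 to 38.4 untreated, 5.40 to 6.13 with anti-IL-1b and 4.60 to 7.03 with MCC950. Dbp over Nr1d2, a ratio of output factor to repressor, was 0.796 to 1.25 untreated, 1.34 to 1.57 with anti-IL-1b and 1.82 to 2.001 with MCC950, with no overlap among the 3 groups. Dbp over Arntl was 1.39 to 1.96 untreated and higher in both treated groups, at 2.01 to 2.69 and 2.46 to 2.63. Cry1 over Cry2 (1.82 to 1.92, 1.59 to 2.39 and 1.83 to 2.39) overlapped across the groups. Nr1d2 over Nr1d1 (11.3 to 15.6, 9.48 to 12.7 and 7.36 to 17.9) did as well. Arntl over Clock was 1.68 to 1.996 untreated, 1.22 to 1.58 with anti-IL-1b and 1.57 to 1.75 with MCC950, and the MCC950 range overlapped both others. The levels of Dbp and Nr1d1 in these ratios are uncertain, as described further down. These ratios are descriptions of the TPM values and carry no test.

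Other genes of the clock were read from a list of 43, of which 37 passed the filter on low counts. With anti-IL-1b 24 of 37 fell and 2 rose, and with MCC950 28 fell and 0 rose, at medians of -0.26 and -0.30 against 0.003 and 0.011 for all tested genes. These counts stand against the 18.5% and 19.1% of all tested genes called lower and the 15.4% and 17.7% called higher. The list was written with earlier results of these data known.

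Among the repressors of that list, Ciart encodes CHRONO, which blocks BMAL1 and CLOCK. It stood at 9.26, 10.6 and 9.99 CPM untreated, 2.74, 1.87 and 1.77 CPM with anti-IL-1b and 1.58, 2.17 and 1.15 CPM with MCC950, with no overlap. It fell in both comparisons, with log2 fold changes of -2.22 (adjusted p = 1.31e-09) and -2.60 (adjusted p = 3.55e-11). Bhlhe40, which encodes the E-box repressor DEC1, was at 3.17 to 6.10 CPM untreated, 0.516 to 0.853 CPM with anti-IL-1b and 0.584 to 0.951 CPM with MCC950. Its log2 fold changes were -2.73 (adjusted p = 7.41e-07) and -2.60 (adjusted p = 1.07e-06). On log2(TPM + 1) values, which understate changes of low genes, Ciart was at -1.31 and -1.64 and Bhlhe40 at -1.37 and -1.25, and all of these passed. Both genes are targets as well as repressors of the loop.

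In the stabilizing arm, Nfil3 encodes E4BP4, a repressor at D-boxes that opposes DBP. It stood at 18.2, 15.6 and 13.9 CPM untreated, 1.40, 2.38 and 1.90 CPM with anti-IL-1b and 2.57, 0.951 and 1.70 CPM with MCC950, and fell by 3.07 (adjusted p = 6.14e-13) and 3.20 (adjusted p = 1.82e-13). Rora, which encodes an activator at ROR elements, was at 11.0 to 12.5 CPM untreated, 8.96 to 10.2 CPM with anti-IL-1b and 6.89 to 9.67 CPM with MCC950. It fell by 0.50 with MCC950 (adjusted p = 0.0097), while -0.26 with anti-IL-1b did not pass (adjusted p = 0.205), and without MCC950 replicate 1 the MCC950 value of -0.38 did not pass (adjusted p = 0.0847), nor did -0.43 on log2(TPM + 1) values (adjusted p = 0.187). Tef, the paralog of Dbp among the D-box activators, fell by 0.26 (adjusted p = 0.00379) and 0.30 (adjusted p = 8.15e-04). The direction of Tef turned on log2(TPM + 1) values, at 0.12 and 0.10, neither of which passed, where the medians of all tested genes were 0.137 and 0.09. With library totals the antibody value of Tef was -0.13 (adjusted p = 0.139). Npas2, the paralog of Clock, was near the lower limit of detection, at 0.0495 to 0.817 CPM over the 9 libraries, and did not pass.

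Genes whose products modify or degrade PER and CRY were called lower in 6 of 10 with anti-IL-1b and 8 of 10 with MCC950, and 0 rose. Of all tested genes, 18.5% and 19.1% were called lower and 15.4% and 17.7% higher, and the difference from these shares was not tested. Fbxw11, an F-box protein gene of PER degradation, fell by 0.46 (adjusted p = 3.59e-07) and 0.34 (adjusted p = 5.68e-05). Gsk3b, a kinase gene of the loop, fell by 0.26 (adjusted p = 2.84e-05) and 0.31 (adjusted p = 7.94e-07). Usp2, a deubiquitinase gene that is itself clock-controlled, was at 5.44 to 7.31 CPM untreated, 3.14 to 4.46 CPM with anti-IL-1b and 3.44 to 4.55 CPM with MCC950, and fell by 0.76 (adjusted p = 0.0081) and 0.68 (adjusted p = 0.0151). Usp2 missed the threshold without untreated replicate 1 (adjusted p = 0.0571 and 0.0907), without anti-IL-1b replicate 1 (adjusted p = 0.0515 for the antibody) and without MCC950 replicate 1 or 2 (adjusted p = 0.0796 and 0.0549 for MCC950). The calls of Usp2 on log2(TPM + 1) values (-0.22, adjusted p = 0.68, and -0.62, adjusted p = 0.231) and Fbxw11 (-0.15, adjusted p = 0.458, and -0.23, adjusted p = 0.255) were lost in both comparisons, and that of Gsk3b with anti-IL-1b was lost as well (-0.16, adjusted p = 0.149).

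Of 8 cofactor genes, 5 fell and 2 rose with anti-IL-1b and 6 fell with MCC950. Among all tested genes 18.5% were called lower and 15.4% higher with anti-IL-1b, and 19.1% lower with MCC950. The 2 that rose were Ncor1, described below, and Hdac3. Hdac3 rose by 0.24 (adjusted p = 0.00691), from 44.4 to 52.5 CPM untreated to 54.5 to 63.1 CPM with anti-IL-1b, and was not followed through the alternative settings. Sirt1, a deacetylase gene that feeds metabolic state into the clock, stood at 96.2, 102 and 99.7 CPM untreated, 50.0, 50.2 and 52.2 CPM with anti-IL-1b and 55.8, 54.9 and 55.6 CPM with MCC950, and fell by 0.97 (adjusted p = 7.18e-17) and 0.84 (adjusted p = 3.05e-15). Crebbp and Ep300, the acetyltransferase coactivators of BMAL1 and CLOCK, fell by 0.31 and 0.30 with anti-IL-1b (adjusted p = 3.36e-08 and 5.91e-09) and by 0.53 and 0.46 with MCC950 (adjusted p = 2.70e-14 and 1.30e-13). They were lower with MCC950 than with the antibody, by log2 differences of 0.22 and 0.15 for antibody over MCC950 (adjusted p = 9.00e-05 and 0.00258), and the Ep300 difference missed the threshold without anti-IL-1b replicate 2 (0.12, adjusted p = 0.0519). The antibody calls of both genes on log2(TPM + 1) values (-0.18, adjusted p = 0.21, for Crebbp and a turn to 0.14, adjusted p = 0.378, for Ep300), the MCC950 call of Ep300 (-0.06, adjusted p = 0.725) and their differences between the agents (adjusted p = 0.105 and 0.347) did not pass. On that scale the median of all tested genes was 0.137 with anti-IL-1b, 0.09 with MCC950 and 0.051 between the agents. Ncor1, the corepressor gene through which REV-ERB proteins act, went in opposite directions with the agents, at 0.08 with anti-IL-1b (adjusted p = 0.0311) and -0.12 with MCC950 (adjusted p = 5.80e-04), a difference between the agents of 0.20 (adjusted p = 1.70e-06). Its rise with the antibody missed the threshold without untreated replicate 2 or 3 (adjusted p = 0.0792 and 0.127) and without anti-IL-1b replicate 2 or 3 (adjusted p = 0.0757 and 0.0612). With library totals the MCC950 value of Ncor1 was -0.01 and did not pass (adjusted p = 0.838), nor did its value of -0.10 on log2(TPM + 1) values (adjusted p = 0.296), where the antibody value was larger, at 0.34.

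**Figure D4:**
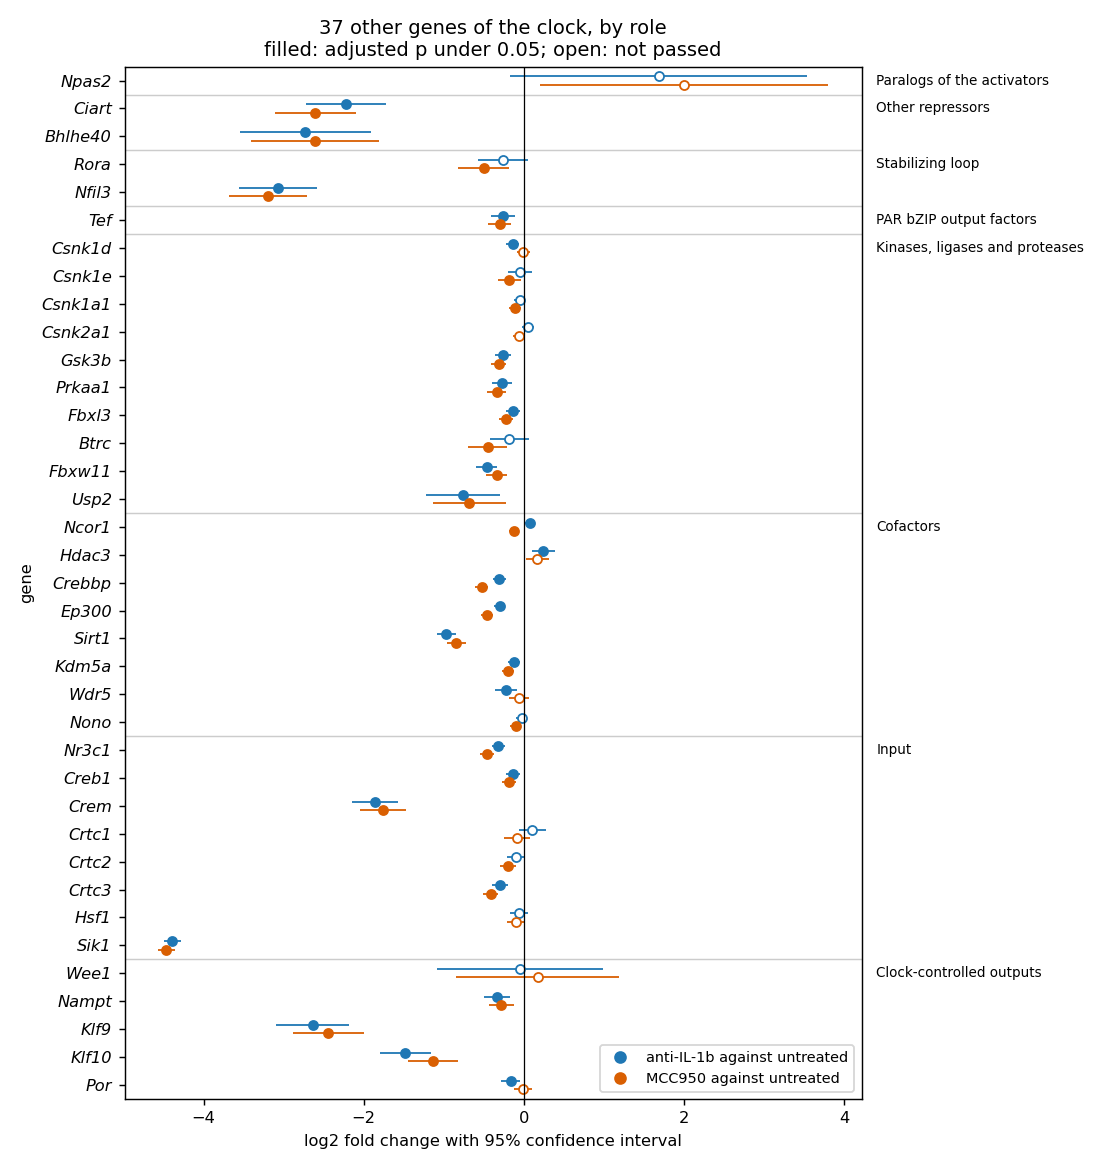
Log2 fold change of the 37 tested genes of the wider clock list with 95% confidence intervals, grouped by role and filled where the adjusted p is under 0.05. Sik1, Nfil3, Bhlhe40, Klf9, Ciart, Crem and Klf10 lie below -1 in both comparisons, and most other genes lie between -1 and 0.

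Clock-controlled outputs fell in 4 of 5 with anti-IL-1b and 3 of 5 with MCC950, where 18.5% and 19.1% of all tested genes were called lower. Klf9, a zinc-finger gene that the clock and glucocorticoids both drive, stood at 11.6, 12.8 and 14.1 CPM untreated, 2.44, 1.74 and 1.97 CPM with anti-IL-1b and 2.45, 2.96 and 1.65 CPM with MCC950, and fell by 2.63 (adjusted p = 1.56e-12) and 2.44 (adjusted p = 5.34e-12). Klf10 fell by 1.48 (adjusted p = 9.73e-10) and 1.14 (adjusted p = 1.43e-07). Nampt, the rate-limiting enzyme gene of NAD salvage, fell by 0.34 (adjusted p = 7.34e-04) and 0.28 (adjusted p = 0.00343), and its MCC950 call was lost without untreated replicate 2 (-0.21, adjusted p = 0.0545), with library totals (-0.17, adjusted p = 0.0763) and on log2(TPM + 1) values (-0.10, adjusted p = 0.676). On the last scale Nampt did not pass with anti-IL-1b either (0.07, adjusted p = 0.767), and Klf9 was at -1.47 and -1.49, with both calls kept. The medians of all tested genes on that scale were 0.137 with anti-IL-1b and 0.09 with MCC950.

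The genes that carry signals into the clock were called lower in 5 of 8 with anti-IL-1b and 6 of 8 with MCC950. The shares over all tested genes were 18.5% and 19.1%. Sik1, a kinase gene that CREB induces and that limits resetting of the clock, stood at 418, 436 and 456 CPM untreated, 21.6, 20.6 and 20.3 CPM with anti-IL-1b and 19.1, 21.6 and 18.7 CPM with MCC950. It fell by 4.39 (adjusted p = 4.07e-41) and 4.46 (adjusted p = 1.58e-41), more than Per1 in both comparisons. Crem, whose short product ICER is CREB-induced, fell by 1.86 (adjusted p = 9.31e-14) and 1.76 (adjusted p = 2.74e-13), from 21.8 to 24.9 CPM in untreated libraries to 5.71 to 7.34 CPM in the treated ones. Nr3c1, the glucocorticoid receptor gene, fell by 0.32 (adjusted p = 4.70e-08) and 0.46 (adjusted p = 4.90e-12). Crtc3, a CREB coactivator gene, fell by 0.30 (adjusted p = 3.72e-06) and 0.41 (adjusted p = 3.30e-09). The antibody calls of Nr3c1 (-0.18, adjusted p = 0.146) and Crtc3 (-0.09, adjusted p = 0.381) were lost on log2(TPM + 1) values.

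Lists of target genes of the inputs to Per1 were counted as well, against 18.5% of all tested genes called lower with anti-IL-1b and 19.1% with MCC950. The shares called higher were 15.4% and 17.7%. All 10 listed CREB-responsive early genes, Sik1 and Crem among them, were called lower in both comparisons, and their summed level was 6987 to 7188 CPM untreated, 743.5 to 795.9 CPM with anti-IL-1b and 553.7 to 589.9 CPM with MCC950. Of 7 tested glucocorticoid-response genes, Klf9 among them, 6 were lower and 0 higher with anti-IL-1b and 5 lower and 1 higher with MCC950, and the summed level of the 10 listed genes was 1306 to 1334, 470.1 to 493.3 and 497.2 to 513.7 CPM. The gene that rose with MCC950 was Fkbp5, a chaperone gene of the glucocorticoid receptor (0.17, adjusted p = 0.043), and Ddit4, an inhibitor gene of mTOR signalling, fell by 0.51 with anti-IL-1b (adjusted p = 9.22e-12) but was at -0.04 with MCC950 (adjusted p = 0.587). Both were named after their values were seen. Dusp1, a phosphatase gene that stands on both the CREB and the glucocorticoid list, made up 565 CPM of the sum in untreated libraries, 56.2 CPM with anti-IL-1b and 36.2 CPM with MCC950. All 12 listed heat shock and handling-stress genes were lower in both comparisons, at summed levels of 18950 to 19190, 5355 to 5426 and 6646 to 6786 CPM. The part of these inputs in the fall of Per1 was not tested.

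The genes whose levels followed a clock gene most closely over the 9 libraries were sought for the 3 members called in both comparisons. Likeness was the root mean square difference of log2 CPM, each gene centred on its own mean, over 9000 genes that averaged at least 2 in log2 CPM. For Per1 these were Csrnp1 at 0.083 and Dusp10, a MAP kinase phosphatase gene, at 0.115. For Arntl they were Clic4 at 0.073 and Srfbp1 at 0.078, and for Nr1d2 they were Epc1 at 0.044 and Gata3, the T cell transcription factor gene, at 0.046. For comparison, the root mean square deviation of each gene from its own mean was 1.261 for Per1, 0.241 for Arntl and 0.310 for Nr1d2.

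The labelled cell type was checked against its markers. Cd4, Cd3e and Ccr7 are on the list of naive CD4+ T markers, though Cd3e is shared by other T cells. All of them were abundant in every library, with Cd4 between 818 and 911 CPM and Ccr7 between 441 and 665 CPM. The 8 naive CD4+ T markers summed to 5905 to 6006 CPM untreated, 5857 to 5865 CPM with anti-IL-1b and 5335 to 5347 CPM with MCC950. Of these 8, 3 were called higher and 2 lower with anti-IL-1b, and 2 higher and 4 lower with MCC950. For this and the marker counts below, 15.4% of all tested genes were called higher and 18.5% lower with anti-IL-1b, and 17.7% and 19.1% with MCC950. Ccr7 was lower (-0.50 and -0.55, adjusted p = 1.05e-17 and 3.15e-19) and Cd3e higher (0.26 and 0.22, adjusted p = 6.62e-09 and 2.50e-07). Markers of other cells were higher in the treated groups. All 10 B cell markers were called higher in both comparisons and summed to 15.6 to 21.7 CPM untreated, 76.5 to 84.6 CPM with anti-IL-1b and 87.3 to 100.7 CPM with MCC950. The 8 cytotoxic markers summed to 63.0 to 68.4, 90.3 to 97.5 and 93.5 to 97.2 CPM, with 3 of 6 tested genes higher in each comparison, 1 lower with anti-IL-1b and Ncr1 at 0 in untreated libraries. Within that sum, Cd8a, which codes for a chain of the CD8 receptor, ran from 0.792 to 1.28 CPM untreated, 17.6 to 22.5 CPM with anti-IL-1b and 18.5 to 20.6 CPM with MCC950, while Prf1, the perforin gene, ran from 43.3 to 47.8, 34.1 to 40.7 and 41.7 to 43.4 CPM. Both were named after their values were seen. Of the 8 neutrophil markers, 7 were tested, of which 7 were higher with anti-IL-1b and 6 with MCC950, at sums of 1.10 to 1.24, 28.2 to 32.0 and 14.2 to 15.4 CPM, with S100a8, Retnlg, Ly6g and Il1b at 0 in untreated libraries. Monocyte, macrophage and dendritic markers summed to 3.30 to 4.82, 11.9 to 15.1 and 11.5 to 14.3 CPM, 4 of 5 tested were higher and 1 lower with anti-IL-1b, 3 of 5 were higher with MCC950, and Fcgr1 was at 0 in untreated and antibody libraries. Red cell markers summed to 0.122 to 0.445, 4.38 to 5.01 and 5.92 to 9.69 CPM, with 4 of 4 tested higher in both and Hba-a1, Hbb-bs and Hbb-bt at 0 in untreated libraries. The part of these cells in the clock gene differences was not tested.

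Some clock genes share genomic bases with a neighbour, and the sources used here do not say whether reads were counted by strand. Nr1d1 (chromosome 11, 98767932 to 98775333) shares 1075 bases with Thra, the thyroid hormone receptor gene on the opposite strand, which had 600 to 883 expected counts per library against the 31 to 82 of Nr1d1. Thra fell by 0.20 with MCC950 (adjusted p = 0.0337) and did not pass with anti-IL-1b (-0.16, adjusted p = 0.114), so the level of Nr1d1 is uncertain. Dbp (chromosome 7, 45705088 to 45710203) shares 737 bases with Sphk2 on the opposite strand. Sphk2 had 891 to 1158 expected counts per library, so the level of Dbp is uncertain as well. Per3 (chromosome 4, 151003652 to 151044665) lies inside Camta1 on the same strand. Neither Sphk2 nor Camta1 passed in either comparison with untreated. Cry2 shares 23417 bases with D930015M05Rik on the opposite strand, which had 2 to 12 expected counts per library. Arntl shares 2394 bases with Gm45355 on the opposite strand, which had 0 counts. Clock shares bases on its own strand with Ube2n-ps1 (9.64 to 26.91 counts) and Gm43658 (2 to 20 counts). Per1 lies on chromosome 11 from 69095217 to 69109960 and Per2 on chromosome 1 from 91415982 to 91459324. Cry1 lies on chromosome 10 from 85131700 to 85185064 and Cry2 on chromosome 2 from 92403646 to 92434043. Arntl lies on chromosome 7 from 113207465 to 113314126, Clock on chromosome 5 from 76209868 to 76304792 and Nr1d2 on chromosome 14 from 18204054 to 18239127, all in the GENCODE M21 annotation of GRCm38.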

How the data were processed

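STAR and RSEM were the authors' tools and mm10 their build, per the submitters' processing notes (versions not named there). Per the file headers, the deposited expected counts are unnormalized estimates per gene from RSEM, and 20.0% of those of the clock genes were not whole. The counts that were not whole were those of Nr1d1 and Dbp, in every library. The deposited TPM values are relative to effective length, per the file headers. Gene IDs were matched to GENCODE M21, and 99.38% had a symbol.

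Here the counts were rounded and tested with edgeR 4.0.16 (R 4.3.3): TMM scaling, filterByExpr, a robust quasi-likelihood fit of 3 group means over 9 libraries, two-sided, Benjamini-Hochberg adjustment over 13374 genes, threshold 0.05. The standard error is the log2 fold change over the square root of F, and intervals are 95%. The procedure was run on simulated counts in which few genes changed, so that run does not cover changes as broad as those here. All 10 members were named. Others were named by role on a fixed list when past the threshold (the 2 with the smallest p per role always), and 2 nearest genes for each member called in both comparisons. The members and lists were chosen with earlier results of these data known. Alternatives were 3 scalings, 2 filters, DESeq2 1.42.0, limma-voom and limma-trend (limma 3.58.1) on log2(TPM + 1), a replicate block, no robust option, a threshold of 0.10, fits on 6 libraries and leaving out each library. Replicates differed beyond sampling noise (chi-square per gene 3.71 to 5.17). Of the marker genes to be named, 1 is not reported here.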

Additional observations from a re-analysis of the deposited data

How the results depend on the processing

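Per1 passed as lower in 21 of 21 alternative settings in both inhibitor comparisons, at log2 values of -2.78 to -2.50 with anti-IL-1b and -2.69 to -2.54 with MCC950. Arntl passed in 21 with anti-IL-1b, and Nr1d2 in 20 of 21 with anti-IL-1b and 21 with MCC950. On log2(TPM + 1) values 2 clock genes were lower with MCC950 and all genes called numbered 3278 there and 576 between the agents. With library totals 1 clock gene (Dbp) was higher with MCC950. Between the agents 1 clock gene (Cry2) was higher under RLE scaling, upper-quartile scaling, library totals, the CPM filter and the threshold of 0.10, and 0 to 1 when leaving out single libraries. Over all tested genes 820 (6.13%) were called higher between the agents in the main fit. Under the settings named, in that order, they numbered 892, 941, 938, 872 and 1084, and 583 to 810 when leaving out single libraries. Calls over all genes split into 2687 higher and 1941 lower (upper quartile), 3929 and 1344 (library totals) and 2635 and 862 (TPM) with anti-IL-1b, into 2859 and 2211 (upper quartile), 4009 and 1587 (library totals) and 2176 and 1102 (TPM) with MCC950, and into 371 and 205 (TPM) between the agents. The cause was not tested.

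Values that were not called changed sign as follows. With anti-IL-1b, library totals gave 0.0116 for Per2, 0.0665 for Per3 and 0.0893 for Cry1, upper-quartile scaling gave 0.0123 for Cry1, and TPM gave 0.039 for Per2, 0.0752 for Per3, 0.0185 for Cry1 and 0.0136 for Cry2. Leaving out single libraries gave -0.3529 to 0.0954 for Per3 and -0.0983 to 0.076 for Dbp. With MCC950, Per2 was -0.0073 with limma-voom and -0.0976 to 0.1506 over single omissions, Per3 was 0.15 with TPM and Cry1 0.0547 with library totals. Between the agents, TPM gave 0.0417 for Per1, -0.0748 for Per3 and 0.1689 for Nr1d1, limma-voom gave 0.0223 for Nr1d1, and single omissions gave -0.1344 to 0.0271 for Per1, -4e-04 to 0.0518 for Cry1 and -0.3096 to 0.2204 for Nr1d1. Called values that turned with TPM, where none passed, were Tef (0.1243 with anti-IL-1b, 0.0991 with MCC950), Ep300 (0.1409) and Nampt (0.0726), both with anti-IL-1b. The median of all tested genes with TPM was 0.137 with anti-IL-1b, 0.09 with MCC950 and 0.051 between the agents.

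Correlations of the deviations of same-numbered libraries were -0.01 to 0.063, positive in 8 of 9 pairs. Those of different numbers were negative in 15 of 18. Deviations were taken from each group's mean, so negative values between different numbers follow in part from positive ones between the same numbers. None passed 0.1, which is no test of pairing. The labels state no pairs, so the numbers were not taken as pairs in the main fit. Still, 7 of 9 libraries correlated best with their own number in both other groups, a hint from the data and not from the design. With the replicate block 3 clock genes were lower with anti-IL-1b, 5 with MCC950 and 0 passed between the agents, and all genes called numbered 4483, 4855 and 1704. Depth limits Per3 and Nr1d1, which had 31 to 82 counts per library.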
